A study of Mus musculus with 36 samples.

Results

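The 10 genes described here are Stab1, Stab2, Lyve1, Clec4g, Oit3, Kdr, Pecam1, Vwf, Cd34 and Plvap, chosen by name as genes that mark the lining of liver sinusoids and vessels. All 10 are among the 24421 genes counted in the mouse livers of this study, and all 10 passed the filter on low counts under both diets. Liver sinusoidal endothelial cells are thin, fenestrated cells that line the hepatic capillaries and clear waste macromolecules from blood through scavenger receptors. The stabilins (Stab1 and Stab2), the hyaluronan receptor Lyve1 and the lectin Clec4g belong to that clearance equipment, and Oit3 is a further gene known for its expression in these cells. In chronic liver injury sinusoids can lose fenestrae and take on features of ordinary capillaries, a process called capillarization, in which Cd34 and Vwf are known to increase.

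Every mouse was a male C57BL/6J fed a choline-deficient, amino acid-defined, high-fat diet (CDAHFD, which produces steatohepatitis) for 12 weeks, and each gave 1 liver RNA-seq library. The mice were 7 weeks old at purchase and were acclimated for 1 week. The HFD experiment gave once-weekly injections during 2 weeks of high-fat diet, with Fc (4.3 mg/kg) in 10 mice and Fc(mML1)B3 (5 mg/kg) in another 10. The standard diet experiment used those doses on days 1, 4 and 7 of a 10-day treatment, for which the mice were returned to standard diet, with 9 Fc mice and 7 Fc(mML1)B3 mice. Fc is the crystallizable fragment of human IgG1, a part of its constant region, and Fc(mML1)B3 is the same protein with a macrocyclic peptide grafted into 1 of its loops, which activates mouse Met, the receptor of hepatocyte growth factor. The comparison of the 2 proteins asks how livers with diet-induced steatohepatitis responded to the Met agonist. No mice without CDAHFD are part of these comparisons, so the injury itself was not measured against healthy liver.

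Libraries held 14949035 to 28466853 counts. Levels are given as counts per 1000000 counts of a library (CPM, scaled by TMM normalization), and a level per length is the CPM per kilobase of summed exon length. Mouse 5 of the Fc(mML1)B3 HFD group stood apart in Cd34 and Vwf, and the HFD treatment values and the main correlations between members are given with and without it. In the HFD experiment the deposited names place the Fc libraries in 1 numbered series and the Fc(mML1)B3 libraries in a pair of others (mice 1 to 4 and mice 5 to 10), so series and treatment cannot be told apart there. The standard diet Fc libraries were split between 2 series (5 and 4 mice), and the 7 Fc(mML1)B3 libraries lay in the series that held 4 Fc mice.

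Promoter sequence was taken from RefSeq (GRCm38.p6) for Kdr and Cd34, the members called higher and furthest lower with the standard diet in Fc mice. Of the 10 members, Stab1, Stab2, Clec4g, Kdr and Cd34 matched an entry of the promoter set, and Lyve1, Oit3, Pecam1, Vwf and Plvap did not. The 250 bases before the Kdr start used in that set lie at chr5:75978456-75978705 on the minus strand, and those before the Cd34 start at chr1:194938571-194938820 on the plus strand. The RefSeq span of the Kdr gene reaches further upstream, so the Kdr window lies within that span, before 1 of its possible starts. Both are written 5′ to 3′ with capitals marking a match, on either strand, to the ETS motif GGAAGT.
Kdr: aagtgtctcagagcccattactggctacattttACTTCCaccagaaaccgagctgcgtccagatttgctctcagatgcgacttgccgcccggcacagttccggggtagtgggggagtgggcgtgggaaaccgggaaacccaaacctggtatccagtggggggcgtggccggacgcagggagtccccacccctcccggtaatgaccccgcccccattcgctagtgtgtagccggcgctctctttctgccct
Cd34: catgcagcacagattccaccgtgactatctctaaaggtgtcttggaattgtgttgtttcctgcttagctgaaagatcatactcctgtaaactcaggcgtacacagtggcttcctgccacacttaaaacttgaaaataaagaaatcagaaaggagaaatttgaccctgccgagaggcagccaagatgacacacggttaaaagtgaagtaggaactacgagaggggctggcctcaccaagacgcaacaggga
ETS factors are known regulators of endothelial genes. The Kdr window held 1 match, in the reverse orientation, and the windows of Cd34, Stab1, Stab2 and Clec4g held none. Of 32851 promoter windows of this length, 19.7% held a match, and a GATA motif (AGATAA), present in 9.99% of them, was found in none of the 5 member windows.

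Clec4g was the most abundant member per length. Its mean over the 36 mice was 54.9 ± 10.1 CPM per kb (SD), and it exceeded the next gene, Plvap (21.8 ± 5.02), in 36 of 36 libraries. Plvap encodes the protein of the diaphragms that span endothelial fenestrae and caveolae. Oit3 followed at 11.2 ± 1.92 CPM per kb, below Plvap and above the next member in every library. These 3 levels were thus in the same order in each mouse. The middle of the order was close. Pecam1, the junctional adhesion molecule CD31, stood at 7.47 ± 0.957 CPM per kb, and Stab2, Kdr and Stab1 stood at 7.08 ± 0.877, 6.93 ± 1.09 and 6.803 ± 0.695. Among these 4, Pecam1 exceeded Stab2 in 22 of 36 libraries, Stab2 exceeded Kdr in 19 and Kdr exceeded Stab1 in 21, so their order did not hold beyond the spread between mice. Between Stab2 and Kdr the order also turned with the experiment, since Stab2 was higher in 17 of the 20 HFD mice and in 2 of the 16 standard diet mice. Lyve1 (4.73 ± 1.41 CPM per kb) lay above Cd34 (3.86 ± 2.20) in 25 of 36 libraries. Vwf, the clotting factor carrier stored in large-vessel endothelium, was lowest in every library at 1.05 ± 0.249 CPM per kb, which is a mean over a gene of 8834 exonic bases.

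**Figure D1:**
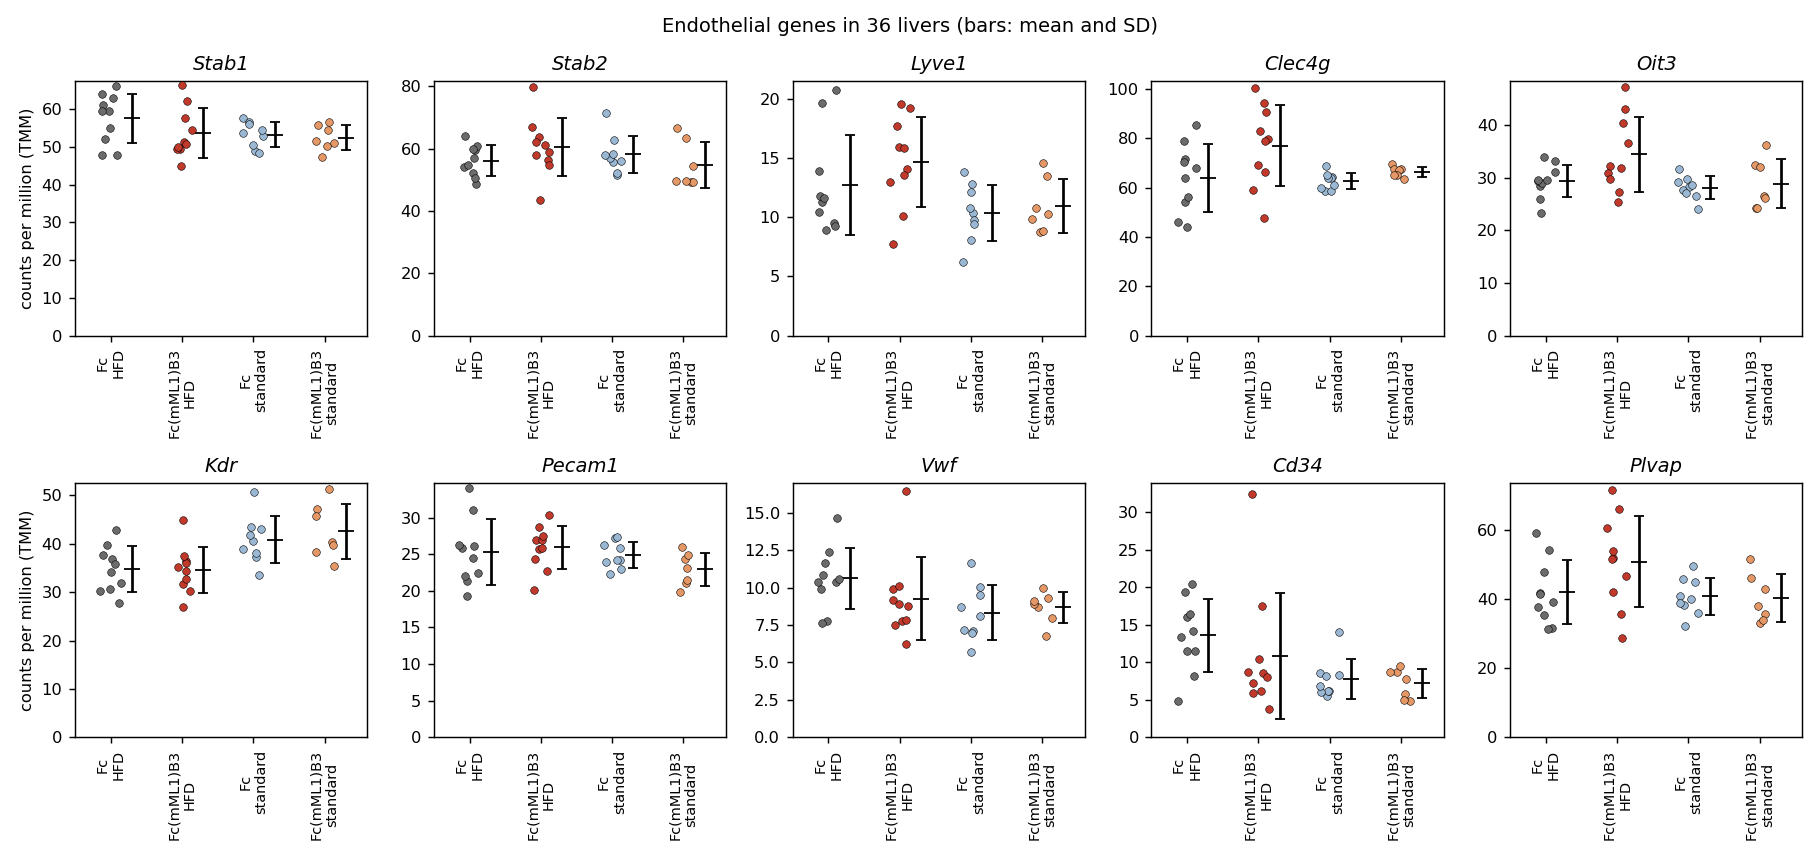
Level of each of the 10 genes in each of the 36 livers, in TMM-scaled CPM on axes that start at 0, with 1 point per mouse and the mean and SD of each group beside the points. Fc and Fc(mML1)B3 points overlap for every gene within both diets, and Cd34 in mouse 5 of the Fc(mML1)B3 HFD group lies at 32.4 CPM, above all other mice.

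None of the 10 genes differed between Fc(mML1)B3 and Fc mice past the test's threshold in either experiment. Under the HFD 0 of 10 members passed an adjusted p of 0.05 (edgeR quasi-likelihood test, 10 against 10 mice), where 14.8% of the 13299 genes tested did. Under the standard diet 0 of 10 passed (7 against 9 mice), where 16.1% of 13570 genes did. At an unadjusted p below 0.05 2 members passed in the HFD experiment, Oit3 and Clec4g, and 0 in the other, against 29.8% and 29.3% of all genes. DESeq2 and limma-voom also called 0 of 10 in both experiments, with no share of all genes given for those fits. The median log2 fold change of the members was 0.086 with the HFD and 0.0049 with the standard diet, and that of all genes was -0.0099 and -0.0112. In whole liver RNA, fewer cells of a type and less RNA per cell cannot be told apart, and this holds for each level below.

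Among the sinusoidal members Stab1, Stab2, Lyve1, Clec4g and Oit3, the log2 fold change under the HFD was furthest above 0 for Clec4g and Oit3. Clec4g, a C-type lectin of sinusoidal endothelium, ran from 44.2 to 85.5 CPM in Fc mice with a median of 65.9. In Fc(mML1)B3 mice it ran from 47.9 to 100.4 CPM with a median of 79.4. The ranges overlapped, 8 of 10 Fc(mML1)B3 mice lay above the Fc median, and 3 lay above every Fc mouse. The log2 fold change was 0.28 ± 0.13 (SE), with a 95% interval of 0.0019 to 0.56 and an adjusted p of 0.165. Clec4g levels were packed closely under the standard diet, at 58.8 to 68.6 CPM in Fc mice and 63.6 to 69.6 in Fc(mML1)B3 mice. There 6 of 7 Fc(mML1)B3 mice exceeded the Fc median of 63.7 CPM. The fold was 1.058 (95% interval 0.999 to 1.12, adjusted p = 0.178), and an exact permutation test of the mean log2 CPM of this gene alone gave an unadjusted p of 0.0229. That was the only p below 0.05 among 20 such tests, which covered the 10 members under both diets. Clec4g is the shortest member, and with the gene-length trend of each library removed its log2 fold change on the standard diet was 0.038 in place of 0.0815 (adjusted p = 0.605).

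Oit3 lay between 23.3 and 33.9 CPM in the Fc mice of the HFD experiment (median 29.5) and between 25.4 and 47.2 in the Fc(mML1)B3 mice (median 31.9). Of the latter, 4 of 10 were above every Fc mouse, and the remainder overlapped. Its log2 fold change of 0.24 ± 0.10 had the smallest p of the members (unadjusted 0.0236, adjusted 0.106), and a permutation test gave 0.0599. On the standard diet Oit3 medians were 28.2 CPM with Fc and 26.6 with Fc(mML1)B3, and the log2 fold change was 0.034 ± 0.081.

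The stabilins, large scavenger receptors that take up modified lipoproteins, hyaluronan and other ligands, showed small differences with narrow intervals. Stab1 medians under the HFD were 59.5 CPM with Fc and 50.9 with Fc(mML1)B3, with ranges of 47.9 to 66.1 and 45.0 to 66.4. The fold was 0.941, with a 95% interval of 0.845 to 1.047. On the standard diet the Stab1 ranges were 48.4 to 57.7 and 47.3 to 56.7 CPM, and the fold of 0.982 had an interval of 0.913 to 1.055. Stab2 had medians of 55.9 and 60.1 CPM with the HFD and of 56.9 and 49.7 with the standard diet. Its fold was 1.087 (0.967 to 1.223) in the former and 0.938 (0.84 to 1.048) in the latter. Reads of Stab1 could be shared with Nt5dc2 over 108 exonic bases, since counting ignored strand.

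Lyve1, which binds hyaluronan on sinusoidal and lymphatic endothelium and is also made by some macrophages, varied more. Fc mice under the HFD ran from 8.90 to 20.8 CPM (median 11.47) and Fc(mML1)B3 mice from 7.73 to 19.6 (median 14.9). The fold of 1.168 carried an interval of 0.911 to 1.496. With standard diet the medians were 10.4 and 10.3 CPM, and the fold of 1.05 had an interval of 0.853 to 1.292. The groups overlapped almost entirely in both experiments.

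Kdr, the main signalling receptor for VEGF-A, and Pecam1 were close to equal between the treatments. Kdr medians under the HFD were 35.03 and 34.8 CPM, and the fold was 1.005 with an interval of 0.891 to 1.133. With the standard diet they were 40.7 and 40.5 CPM, with a fold of 1.041 and an interval of 0.925 to 1.171. For Kdr, Fc(mML1)B3 mice lay on both sides of the Fc median in each experiment. Pecam1 medians were 25.1 and 26.4 CPM under the HFD (fold 1.036, interval 0.908 to 1.181). With the standard diet they were 24.2 and 23.1 CPM, where 3 of 7 Fc(mML1)B3 mice lay below every Fc mouse and the fold was 0.919 (0.841 to 1.006, adjusted p = 0.201).

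Plvap and the vessel markers Vwf and Cd34 pointed in opposite directions under the HFD, without passing the test. Plvap medians were 40.4 CPM with Fc (31.5 to 59.3) and 51.8 with Fc(mML1)B3 (28.7 to 71.6). Its log2 fold change was 0.29 ± 0.15 with an adjusted p of 0.185. For Vwf, Fc mice ran from 7.64 to 14.6 CPM with a median of 10.5. Fc(mML1)B3 mice ran from 6.23 to 16.5 with a median of 8.83, and only 1 of 10 lay above the Fc median. Cd34, a sialomucin of capillary endothelium that is also present on fibroblasts and blood progenitors, ran from 4.87 to 20.5 CPM in Fc mice (median 13.8) and from 3.78 to 32.4 in Fc(mML1)B3 mice (median 8.31). For Cd34, 8 of 10 Fc(mML1)B3 mice were below the Fc median, yet the highest value of all was in that group too. The folds were 0.879 for Vwf (0.718 to 1.077) and 0.809 for Cd34 (0.525 to 1.248). On the standard diet the folds of Plvap, Vwf and Cd34 were 0.984, 1.036 and 0.923, and each interval included 1.

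**Figure D2:**
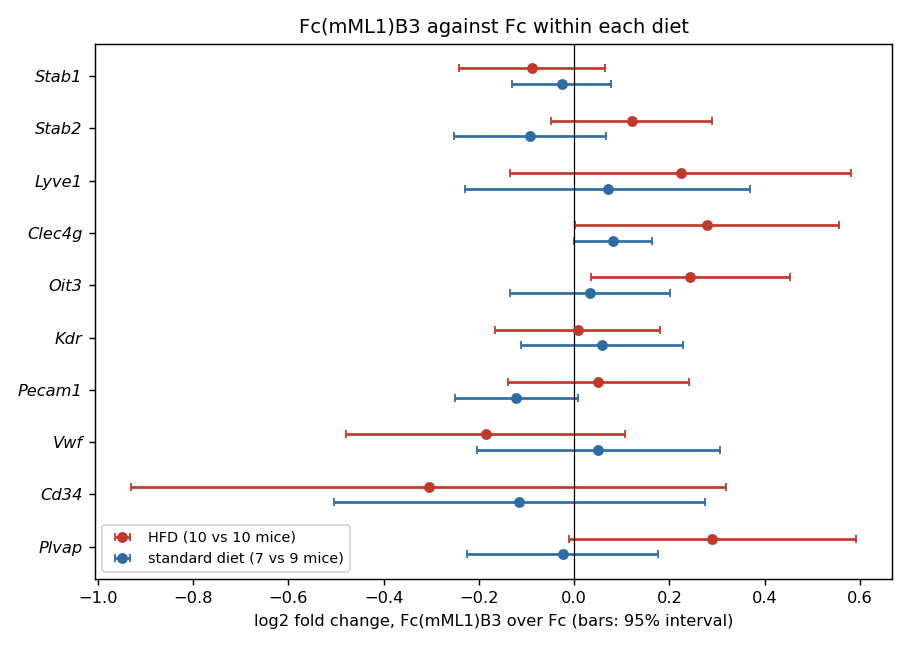
Log2 fold change of Fc(mML1)B3 over Fc for each of the 10 genes (points) with its 95% interval (bars), for the HFD (10 against 10 mice) and the standard diet (7 against 9). The HFD interval lies above 0 for Oit3 (0.036 to 0.45) and, barely, for Clec4g, while all standard diet intervals include 0.

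The HFD values depended on mouse 5 of the Fc(mML1)B3 group. In that liver Cd34 was 32.4 CPM and Vwf 16.5 CPM, the highest of their group, whereas Plvap (28.7 CPM), Clec4g (47.9), Oit3 (25.4), Kdr (27.04), Stab2 (43.6) and Lyve1 (7.73) were the lowest of theirs. Without it Oit3 passed the test (log2 fold change 0.29 ± 0.096, adjusted p = 0.0386), so 1 of 10 members was then called, where 21.3% of the 13387 genes of that fit were. Clec4g (0.34, adjusted p = 0.0535), Plvap (0.36, 0.0567), Vwf (-0.31, 0.0528) and Cd34 (-0.65, 0.0568) came close to the threshold without passing it. The values of Stab2 (0.17, 0.0967), Lyve1 (0.30, 0.182), Stab1 (-0.11), Kdr (0.042) and Pecam1 (0.046) were also not called. Of the 20 HFD libraries, no other changed a member's call when left out. Other libraries moved values without changing a call. Stab2 went from 0.12 to 0.070 without Fc(mML1)B3 mouse 6, and Vwf from -0.19 to -0.12 without Fc mouse 4. Values also differed between the file series. Against all Fc mice, Fc(mML1)B3 mice 1 to 4 gave log2 fold changes of 0.47 for Clec4g, 0.52 for Plvap and -0.76 for Cd34, and mice 5 to 10, which include mouse 5, gave 0.14, 0.12 and -0.050. Mice 6 to 10 alone, a subset chosen after the values were seen, gave 0.23, 0.22 and -0.55. None of the 10 members was called in any of these subsets, and a difference between the series was not tested.

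Whether Fc(mML1)B3 acted differently under the 2 diets was tested by the interaction over all 36 libraries, which shares its samples with the comparisons above. 0 of 10 members passed, where 9.06% of 14105 genes did, and 0 had an unadjusted p below 0.05. The largest differences were -0.30 ± 0.19 for Plvap and 0.25 ± 0.20 for Vwf (log2, standard diet effect minus HFD effect), with adjusted p of 0.410 and 0.530. This order rested on mouse 5, since without it the difference was 0.55 for Cd34 (0.20 with all libraries), 0.38 for Vwf and -0.36 for Plvap, none of them called. For Stab1 the 95% interval of the difference was -0.12 to 0.27, and for Cd34 it was -0.61 to 1.02, so the data bound the first far more tightly.

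Other endothelial genes, grouped by role, gave a small number of calls, to be read against the 14.8% of all genes called under the HFD and the 16.1% on the standard diet. Of 14 other sinusoidal genes, 2 rose under the HFD and 0 fell, a share close to that background. Gata4, a transcription factor that sets sinusoidal endothelial identity, rose from a median of 19.0 to 24.6 CPM (log2 fold change 0.38 ± 0.083, adjusted p = 0.0030). F8, which encodes clotting factor VIII and is made by these cells, rose from 14.2 to 17.8 CPM (0.37 ± 0.11, adjusted p = 0.0291). On the standard diet 1 of 14 rose, a share below the background, namely Fcgr2b, an inhibitory Fc receptor of sinusoidal endothelium and immune cells, from 43.9 to 48.9 CPM (0.18 ± 0.053, adjusted p = 0.0226). The list medians were 0.087 and 0.027. F8 was no longer called with limma-voom (adjusted p = 0.0604), nor without Fc mouse 1 or without Fc(mML1)B3 mouse 4, 6 or 10 (0.33 to 0.35). Fcgr2b was no longer called without Fc(mML1)B3 mouse 6 (0.15, adjusted p = 0.0605) nor within the shared file series (0.17, adjusted p = 0.106). With the length trend removed (an alternative described with the comparison of the experiments) Fcgr2b was not called on the standard diet (0.15, adjusted p = 0.0893), and F8 was (0.21, adjusted p = 0.0425).

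Of 20 other pan-endothelial genes, 2 rose under the HFD, 0 fell, and 0 passed in either direction under the standard diet, shares below the 14.8% and 16.1% of all genes. With the length trend removed Egfl7, a secreted endothelial matrix protein, was also called lower under the HFD (-0.22, adjusted p = 0.0325). Ptprb, the vascular phosphatase that restrains Tie2, rose from a median of 53.4 to 71.4 CPM (0.41 ± 0.089, adjusted p = 0.0026). Tek, which encodes Tie2, the angiopoietin receptor, rose from 11.3 to 14.2 CPM (0.32 ± 0.095, adjusted p = 0.0273). Tek medians under the standard diet were 15.1 CPM with Fc and 13.2 with Fc(mML1)B3 (log2 fold change -0.20 ± 0.075, adjusted p = 0.0816), and those of Ptprb were 71.7 and 72.3. Leaving out HFD Fc(mML1)B3 mouse 6 ended the HFD call of Tek (0.28, adjusted p = 0.0571), and leaving out standard diet Fc mouse 5 made its decrease there a call (-0.23, adjusted p = 0.0239). These 2 of the 20 genes passed the interaction, a share close to the 9.06% of all genes, with differences of -0.50 ± 0.13 for Tek (interaction, adjusted p = 0.0077) and -0.40 ± 0.12 for Ptprb (adjusted p = 0.0256). With the gene-length trend removed the Ptprb difference was -0.34 and no longer passed (adjusted p = 0.0884). In the fit to the counts as deposited no other gene of the endothelial lists passed the interaction, and with the trend removed Nr2f2, of the large-vessel list, did (0.38, adjusted p = 0.0355).

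Among large-vessel and sprouting genes, 2 of 10 tested fell under the HFD and 0 rose, where 14.8% of all genes were called. Gja5, the connexin of arterial endothelium, fell from a median of 1.67 to 0.965 CPM (log2 fold change -0.83 ± 0.24, adjusted p = 0.0224), at a median of 36 and 18 reads a library. Nr2f2, a venous identity factor also expressed by mesenchymal cells, fell from 63.8 to 48.8 CPM (-0.32 ± 0.10, adjusted p = 0.0402). Nr2f2 was no longer called in 12 of the 20 fits that left out 1 HFD library, while its log2 fold change stayed between -0.37 and -0.25. Under the standard diet 0 of 10 passed. The list of 12 VEGF and angiopoietin ligands and receptors includes the member Kdr and some genes of the other lists. Of these 12, 1 passed under the HFD (Tek, above) and 1 under the standard diet. The latter was Vegfa, the main angiogenic ligand, which hepatocytes also make, with medians of 150.8 and 167.1 CPM (0.17 ± 0.048, adjusted p = 0.0169). Within the shared file series its value was 0.12 and did not pass (adjusted p = 0.21).

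All 10 members varied more between mice of a group under the HFD than under the standard diet, as did 87.2% of the 14105 genes kept. Clec4g had the widest contrast, with an SD of log2 CPM within groups of 0.324 with the HFD and 0.0648 with the standard diet, a ratio of 5.00. The median ratio over all genes was 1.48. Cd34 was the most variable member in both experiments, at 0.752 and 0.412. The ratio was smallest for Kdr (1.11) and Stab2 (1.11). The spread was compared as a description and not tested.

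Across individual mice the members fell into opposed patterns. After the 4 group means were subtracted from log2 CPM, Cd34 and Plvap ran against each other over the 36 libraries, with Pearson's r of -0.81 and Spearman's rho of -0.71. The r within each of the 4 groups lay between -0.91 and -0.72, and it was -0.71 without the 2 mice farthest from the Cd34 median and -0.75 without mouse 5. Cd34 went with Vwf (r = 0.69, rho = 0.55, groups 0.47 to 0.86) and against Clec4g (r = -0.61, rho = -0.55) and Stab2 (r = -0.60, rho = -0.48). Without mouse 5 these r were 0.57 for Vwf, -0.48 for Clec4g and -0.47 for Stab2, and without the 2 farthest mice they were 0.58, -0.55 and -0.35. Mice with more Cd34 thus tended to have more Vwf and less Plvap, and this held in every group. Plvap went with Oit3 (r = 0.73, rho = 0.66) and Clec4g (r = 0.63, rho = 0.56), Oit3 with Kdr (r = 0.69, rho = 0.66), and Stab2 with Kdr (r = 0.65, rho = 0.54). Without mouse 5 those 4 r were 0.68, 0.52, 0.65 and 0.59. Some pairs held unevenly by group. Stab2 and Kdr had r from -0.09 to 0.92, and Plvap and Clec4g had 0.52 and 0.87 in the HFD groups but 0.06 and 0.00 in the standard diet groups. For Stab1 and Stab2, which are related in sequence and function, the pooled r of 0.10 joined unlike groups, with -0.25 and -0.01 in the HFD groups and 0.53 and 0.70 in the standard diet groups. These r describe libraries that share depth, preparation and tissue composition, and carry no test.

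**Figure D3:**
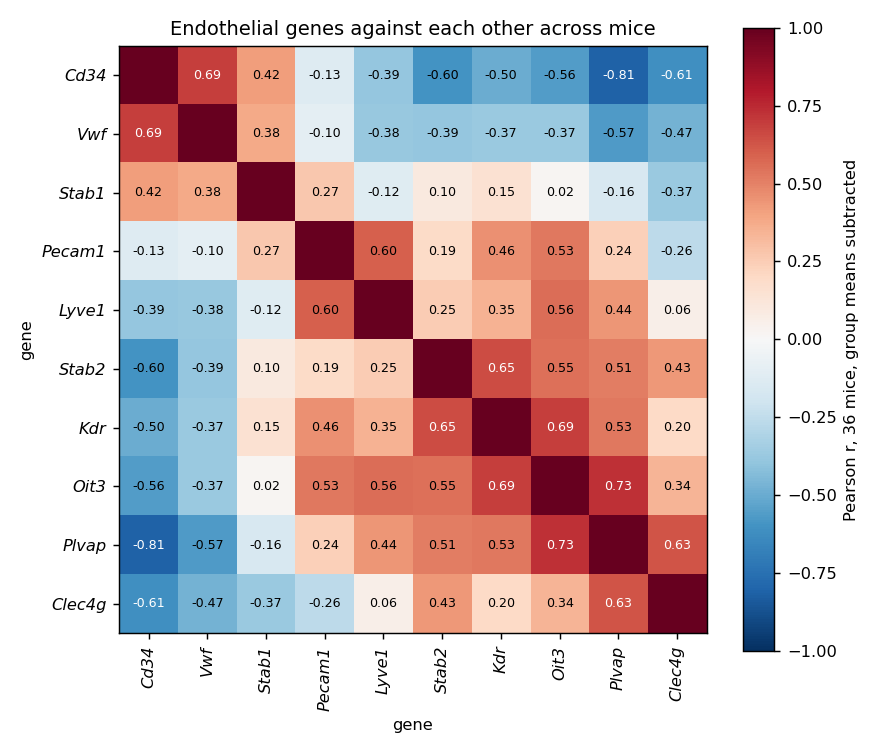
Pearson's r between each pair of the 10 genes over 36 mice, computed on log2 CPM after subtraction of the 4 group means (red positive, blue negative). Cd34 and Vwf form a positive block (0.69) and are negative against Plvap (-0.81 and -0.57), while Oit3, Kdr, Stab2 and Plvap are positive with each other.

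**Figure D4:**
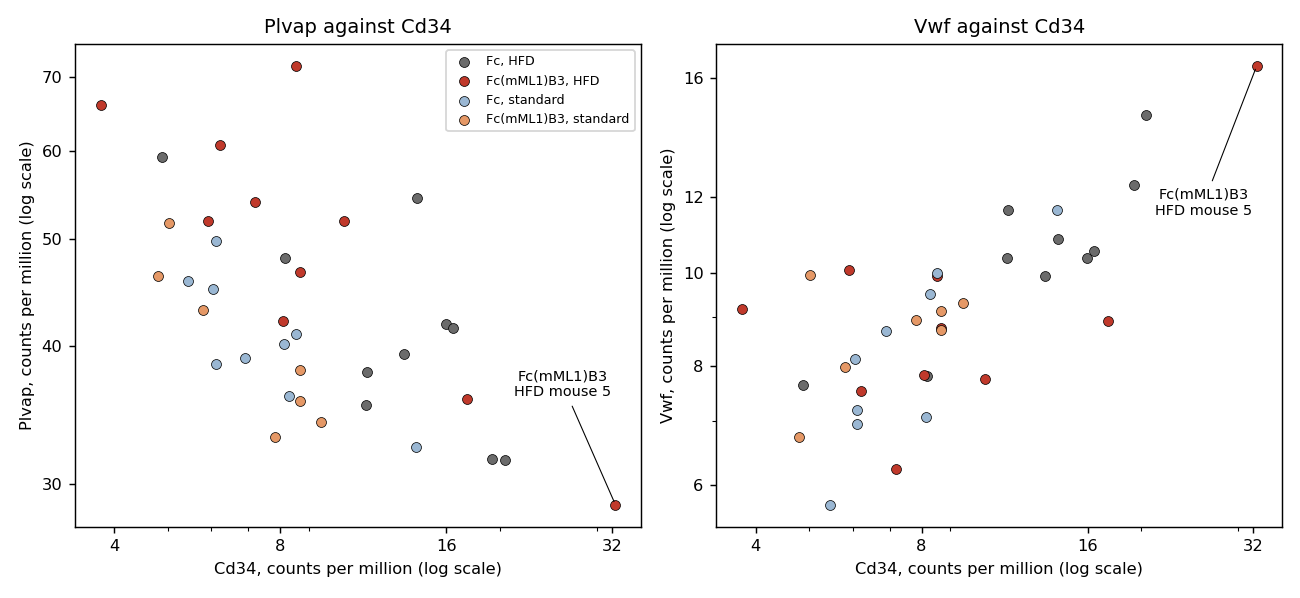
Plvap (left) and Vwf (right) against Cd34 in each of the 36 livers, in CPM on log axes, coloured by group. Mouse 5 of the Fc(mML1)B3 HFD group (Cd34 32.4, Plvap 28.7, Vwf 16.5 CPM) lies at the end of both clouds.

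The genes most like each member over the 36 mice, among 14104 others and by the same measure, differed between members. Cd34 ran with Emp2 (r = 0.95), Bcam (0.94) and Ltbp3 (0.94). Clec4g ran with Hebp1 (0.91), Pccb (0.91) and Prdx6 (0.90), and Plvap with Atp5a1 (0.87), Uqcrc1 (0.85) and Dlst (0.82), which are mostly mitochondrial or hepatocyte enzymes. Only Lyve1, Oit3 and Pecam1 had the endothelial cadherin Cdh5 among their 3 nearest, at 0.77, 0.77 and 0.73. Lyve1 also ran with Esm1 (0.77) and Cd86 (0.77), and Oit3 with Atp5a1 (0.79) and Dlst (0.77). The nearest genes were Xrcc1 (0.77), Hspg2 (0.74) and Tln1 (0.69) for Stab1, and Pigr (0.75), Abat (0.75) and Sardh (0.74) for Stab2. They were Bsdc1 (0.79), R3hdm2 (0.78) and Ssh1 (0.77) for Kdr, and Lrrc1 (0.79), Art4 (0.79) and Sgpp2 (0.78) for Vwf. For Pecam1 the other nearest were Sdc3 (0.72) and 6430548M08Rik (0.71).

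Markers of other liver cells moved with several members from mouse to mouse, and their part in the results was not tested. The summed CPM of 8 portal fibroblast and mesothelial markers followed Cd34 with r = 0.95 (0.92 to 0.97 within groups) and ran against Plvap with r = -0.87. In the HFD experiment that sum lay between 42.5 and 165.6 CPM in Fc mice (median 89.4) and between 36.4 and 184.0 in Fc(mML1)B3 mice (median 61.4), with the highest value in mouse 5. Of 7 tested markers of that list 6 were below 0 under the HFD, with a median of -0.33, and 0 were called. Under the standard diet the sums were 44.1 to 111.4 and 31.9 to 70.9 CPM. Most of that sum was Dpt, a fibroblast matrix gene with a median of 38.3 CPM, while Pi16 and Clec3b were near 0. Summed hepatocyte markers ran against Cd34 (r = -0.77) and with Plvap (r = 0.69). Lyve1 followed the sum of 8 Kupffer cell and macrophage markers (r = 0.71) about as closely as that of the 14 other sinusoidal genes (r = 0.73). Most of the sinusoidal sum was 1 gene, Ctsl, at a median of 765 CPM where the sum had 1200 in HFD Fc mice. Both sums were highest in the same mouse within each group, so these 2 r do not set endothelium apart from macrophages. The macrophage sum ranged from 243.9 to 779.5 CPM in Fc mice and 243.7 to 550.2 in Fc(mML1)B3 mice under the HFD, and from 237.0 to 524.2 and 322.1 to 467.5 under the standard diet. With the sum of the 20 other pan-endothelial genes the r was 0.82 for Oit3, 0.73 for Kdr, 0.66 for Pecam1, 0.61 for Lyve1, 0.59 for Plvap, 0.58 for Stab2, 0.24 for Stab1, 0.16 for Clec4g, -0.19 for Vwf and -0.42 for Cd34. The sum of 7 stellate cell markers, at 175.3 to 271.4 CPM over all mice, had r between -0.34 and 0.38 with the members. Of those 7, Ngfr fell with Fc(mML1)B3 under both diets (log2 fold change -0.92, adjusted p = 0.0057, and -0.87, adjusted p = 3.2e-05), Des fell on the standard diet (-0.36, adjusted p = 0.0239), and 0 rose. Megakaryocyte and platelet genes, which share Vwf, were scarce, with sums of 4.30 to 7.87 CPM over all mice and with Gp9, Gp1bb and Gp6 at 6 reads or fewer in every library. Of 4 lymphatic markers, which share Lyve1, Ccl21a had 0 reads in every library, and Mmrn1 and Pdpn had medians of 0.486 and 1.66 CPM. Prox1, which hepatocytes also express, had a median of 20.2 CPM and made up most of that sum. Prox1 was higher with the standard diet than the HFD (log2 1.65 in Fc mice and 1.52 in Fc(mML1)B3 mice), and the median lymphatic sum was 34.97 CPM against 14.2 in Fc mice.

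Between the experiments, the standard diet and HFD groups differed in diet, duration, dosing and library series together, and these cannot be told apart. The contrast of the Fc groups called 2 of 10 members lower with the standard diet and 1 higher, where 24.6% of 14105 genes were lower and 23.3% higher. Cd34 was lower (medians 6.90 against 13.8 CPM, log2 fold change -0.81 ± 0.28, adjusted p = 0.0157), as was Vwf (8.13 against 10.5 CPM, -0.35 ± 0.14, adjusted p = 0.0345). Kdr was higher (40.7 against 35.03 CPM, 0.23 ± 0.084, adjusted p = 0.0232). In Fc(mML1)B3 mice 1 of 10 was lower and 1 higher, where 17.9% and 20.7% of genes were. Oit3 was the lower (26.6 against 31.9 CPM, -0.26 ± 0.10, adjusted p = 0.0405) and Kdr the higher (40.5 against 34.8 CPM, 0.30 ± 0.090, adjusted p = 0.0076). Kdr was thus the member called in both. Cd34 had the largest difference in Fc(mML1)B3 mice too, at -0.60 ± 0.30, but was not called there (adjusted p = 0.108), and without mouse 5 it was -0.26. Without standard diet Fc mouse 4 the Kdr difference in Fc mice was 0.19 and not called. Vwf was no longer called in 7 of 36 fits that left out a library (HFD Fc mouse 1, 2 or 4, or standard diet Fc mouse 2, 3, 4 or 5), and Oit3 in 8 of 36 (Fc(mML1)B3 mouse 2, 3, 6 or 10 under the HFD, or mouse 2, 3, 4 or 5 under the standard diet). Without HFD Fc(mML1)B3 mouse 5, 5 members were lower in Fc(mML1)B3 mice, namely Stab2, Lyve1, Clec4g, Oit3 and Plvap (-0.20 to -0.50), and Kdr stayed higher, where 16.9% of the 14079 genes of that fit were lower and 19.7% higher. Other libraries had a like effect, since Plvap was called lower in 12 and Lyve1 in 8 of the 36 fits that left out a library, mouse 5 included, and Pecam1 in 1. Dpt, the main fibroblast marker above, was also lower with the standard diet, at -0.91 in Fc mice and -0.94 in Fc(mML1)B3 mice. Of 7 hepatocyte markers, 7 lay above 0 in Fc mice and 5 in Fc(mML1)B3 mice. In each, 2 were called higher and 0 lower, where 23.3% and 20.7% of all genes were higher.

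The difference between the experiments also varied with gene length. Over all genes its log2 value rose with exon length (Spearman's rho across genes 0.386 in Fc mice and 0.331 in Fc(mML1)B3 mice), from a median of -0.242 in the shortest quintile of genes to 0.246 in the longest quintile in Fc mice. Within the HFD experiment the corresponding rho was -0.036, and within the standard diet experiment -0.195. The trend bears on the members because Stab1, Stab2, Vwf and Kdr have 5451 to 8834 exonic bases, and Clec4g has 1235. With the length trend of each library removed before the fit, an alternative chosen after this was seen, 4 of 10 members were lower in Fc mice (19.9% of all genes lower, 21.9% higher) and 3 of 10 in Fc(mML1)B3 mice (17.2% lower, 17.8% higher), and none was higher. Stab1 was lower in both (-0.42 and -0.32), as were Stab2 (-0.27 and -0.44) and Vwf (-0.68 and -0.39), and Cd34 in Fc mice (-0.75). Kdr stood at 0.039 and 0.11 and was no longer called, nor was Oit3 in Fc(mML1)B3 mice (-0.24, adjusted p = 0.0641). Stab2 in Fc mice turned from 0.049, not called, to a called decrease. Within each diet 0 of 10 members passed with the trend removed as well.

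**Figure D5:**
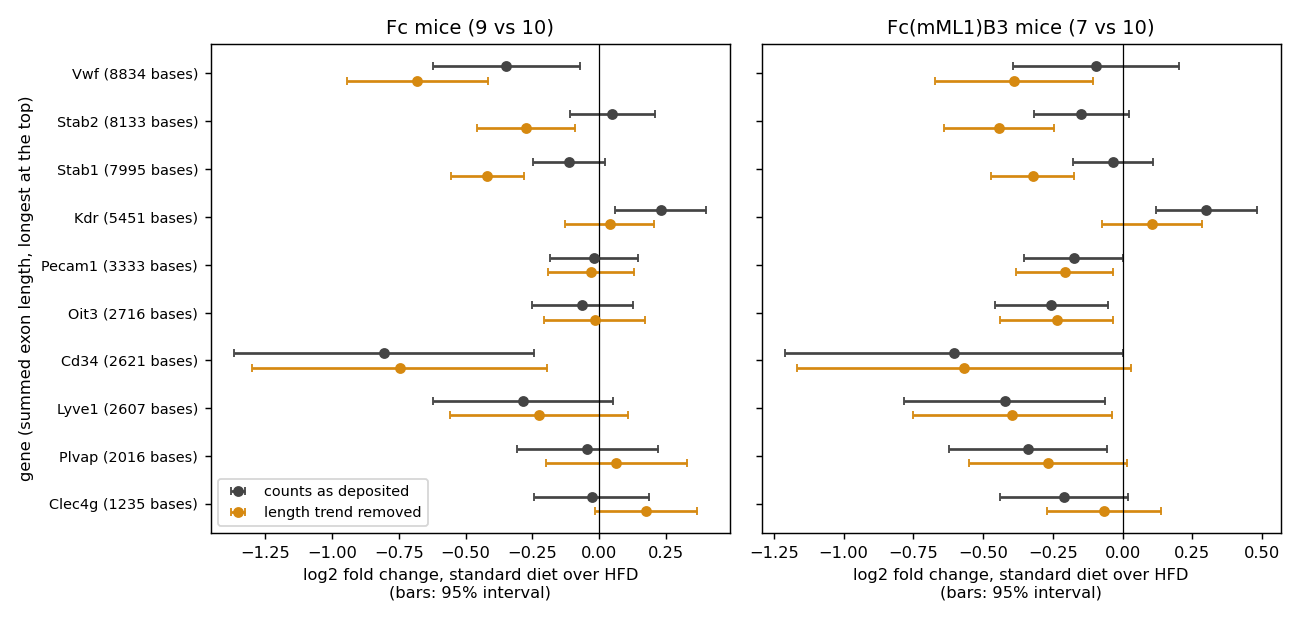
Log2 difference between the standard diet and the HFD for each of the 10 genes, ordered by summed exon length, with 95% intervals, from the counts as deposited (dark) and with the length trend of each library removed (orange). The orange points lie further left for the long genes Vwf, Stab2, Stab1 and Kdr, and Kdr moves from 0.23 to 0.039 in Fc mice.

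The other endothelial lists are given for the same contrast by their counts, and the genes named for it were picked with their values already seen. Among 20 other pan-endothelial genes, 7 were lower and 2 higher with the standard diet in Fc mice (24.6% and 23.3% of all genes), and 8 were lower and 0 higher in Fc(mML1)B3 mice (17.9% and 20.7%). With the length trend removed 8 and 11 were lower and 0 higher in either. Eng, a TGF-beta co-receptor of endothelium, had medians of 71.4 against 109.5 CPM in Fc mice (log2 fold change -0.61 ± 0.055, adjusted p = 3.7e-11) and of 69.9 against 102.2 in Fc(mML1)B3 mice (-0.54). The standard diet and HFD ranges of Eng did not overlap in either treatment. Ramp2, the adrenomedullin co-receptor, was lower by a similar amount (-0.76 in both), as was the sialomucin Emcn (-0.74 and -0.56). The values of Eng, Ramp2 and Emcn are from the counts as deposited, with the length trend still in them. Of the 14 other sinusoidal genes, 5 were lower and 1 higher in Fc mice, and 6 lower and 0 higher in Fc(mML1)B3 mice, and with the length trend removed 4 and 5 were lower and 0 higher. Of 11 large-vessel and sprouting genes, 2 were lower in Fc mice and 1 in Fc(mML1)B3 mice, with 0 higher, which lies below the background. With the length trend removed 3 and 2 were lower and 0 higher, shares no longer below those of all genes (19.9% and 17.2% lower). The 12 VEGF and angiopoietin genes include the member Kdr, and also Tek, Tie1, Flt1, Flt4 and Angpt2, which are counted in the other lists too. Of these 12, 1 was lower and 3 higher in Fc mice, and 3 lower and 2 higher in Fc(mML1)B3 mice. With the length trend removed 6 were lower in each, with 0 and 1 higher. The scaling mattered for the direction of several members. When libraries were scaled to the summed pan-endothelial counts in place of TMM, Stab1 in Fc(mML1)B3 mice (0.20) and Pecam1 (0.16) and Stab2 (0.22) in Fc mice were called higher with the standard diet. That sum, which includes Eng, was itself lower with the standard diet (medians 338.6 against 388.3 CPM in Fc mice and 330.4 against 399.4 in Fc(mML1)B3 mice). Relative to TMM, this scaling therefore raised the standard diet values of all genes together. No share of all genes called is given for it. The lower Cd34 in Fc mice kept its sign (-0.62) but missed the threshold (adjusted p = 0.0814).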

How the data were processed

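Liver RNA of 36 mice, 1 library each, was grouped by the sample labels. The values used are read counts per gene. The authors trimmed reads with fastp, removed ribosomal RNA with Bowtie2 (2.4.5), aligned to mm10 with STAR (2.7.10a) and counted with featureCounts of Subread (2.0.3), and deposited the counts without normalization. They counted each end of a pair as a read (77.5% of counts from 2 to 20 were even), ignored strand and left out reads with several alignments. Library totals had a median of 23558194.5 counts. Among 147 pairs of libraries within groups none agreed within sampling noise.

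From these counts, each experiment was tested with edgeR 4.0.16 in R 4.3.3 (TMM, filterByExpr, quasi-likelihood test, Benjamini-Hochberg adjustment over all genes tested, call at an adjusted p below 0.05). The interaction and the contrasts between experiments were fitted over all 36 libraries and 14105 genes with 4 group means. Standard errors and 95% intervals come from the fit of each comparison, which within a diet is that of its own experiment. For each member, a 2-sided permutation test of mean log2 CPM (prior count 0.5, scipy 1.17.1, unadjusted) enumerated all 11440 groupings for the standard diet and drew 100000 for the HFD. On simulated counts with 200 changed genes, the test recovered 99% of genes changed by a fold of 2 under both diets, and 78% (HFD) and 60% (standard diet) at a fold of 1.5. For the interaction it recovered 85% at a fold of 2 and 31% at a fold of 1.5.

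The members and the gene lists were chosen with earlier results of these data known. Named genes are the 10 members, up to 4 genes per other endothelial list and experiment that were called, by smallest p, and the 3 genes most like each member. Alternatives were DESeq2 1.42.0, limma-voom (limma 3.58.1), other normalization, filters, thresholds and scaling, a replicate block, file series and each library left out. Removal of the length trend and the fit with Fc(mML1)B3 mice 6 to 10 of the HFD experiment were added after seeing the data. Of the genes with shared exons, Stab1 overlaps Nt5dc2 and Cd34 overlaps Gm16897, so their reads could be split.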

Additional observations from a re-analysis of the deposited data

Results flagged for a closer look

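Of 40 groups of mice (10 members in 4 groups), 3 had 1 mouse far from the others, where chance alone flags about 1 in 20. Cd34 was 32.4 CPM in mouse 5 of the Fc(mML1)B3 HFD group, next to 17.5 CPM in the nearest mouse, and Vwf in that mouse was 16.5 CPM, next to 10.1. Cd34 was 14.1 CPM in mouse 6 of the Fc standard diet group, next to 8.55 CPM. In both mice the summed fibroblast and mesothelial markers were also the highest of their group, at 184.0 and 111.4 CPM.

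Tek and Ptprb, 2 of 20 other pan-endothelial genes, passed the interaction test, where 9.06% of all genes did. The difference of log2 fold changes, standard diet minus HFD, was -0.50 for Tek and -0.40 for Ptprb. The Ptprb call ended with the length trend removed (adjusted p = 0.0884).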

How the results depend on the processing

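Within each diet and for the interaction, 0 of 10 members were called under the alternatives run (13, 11 and 9 of them), apart from those that left out 1 library. With 1 library left out the count was 0 to 1 under the HFD, 0 to 0 with the standard diet and 0 to 0 for the interaction. Between the experiments the count was less stable. It was 2 in Fc(mML1)B3 mice, and became 4 with DESeq2, 1 with limma-voom, 7 with upper-quartile normalization, 1 with no filter on low counts, 0 at the study's fold thresholds and 1 with a replicate block. It was 3 in Fc mice, and became 1 at the study's thresholds. With 1 library left out it was 1 to 3 in Fc mice and 1 to 6 in Fc(mML1)B3 mice. No share of all genes called is set beside these counts here. They show how the count moved with processing and are not a result about the members. The replicate numbers did not pair the samples (r of same-numbered deviations -0.62 to 0.262), so the block shares only a number.

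Small log2 differences changed sign as follows, and the cause was not tested. For Fc(mML1)B3 over Fc under the HFD, Kdr was -0.0306 with upper-quartile normalization, -0.0083 with 1 fit over all libraries, -0.0665 scaled to pan-endothelial genes and -0.016 with Fc(mML1)B3 mice 1 to 4, Pecam1 was -0.0158 with the pan-endothelial scaling, and Vegfa was 0.0329 with mice 5 to 10 and 0.077 with mice 6 to 10. For the standard diet, Lyve1 was -0.0062 and Ptprb 0.0155 with the block, Ptprb 0.0022 with no filter, and in libraries of 1 series Stab1 was 0.055, Vwf -0.1341, Plvap 0.0761, Ptprb 0.0154 and Nr2f2 -0.0631. With the length trend removed, Stab1 was 0.046 and Ptprb 0.0911. Between the experiments in Fc mice, Clec4g was 0.0002 and Pecam1 0.0021 with limma-voom, Stab2 -0.0375 with upper-quartile normalization, Clec4g 0.0204 with the block, and with the length trend removed Stab2 was -0.2736, Clec4g 0.1753 and Plvap 0.0646. Scaled to pan-endothelial genes, Stab1 was 0.0679, Clec4g 0.1404, Oit3 0.1176, Pecam1 0.1625 and Plvap 0.1333 in Fc mice, and in Fc(mML1)B3 mice Stab1 was 0.2003, Stab2 0.0897, Clec4g 0.0418, Pecam1 0.06 and Vwf 0.1358. Relative to TMM this scaling raised all genes together in the contrast between the experiments, so these sign changes are not particular to the members.

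With 1 library left out, values that crossed 0 ranged, under the HFD, from -0.0397 to 0.0415 for Kdr and -0.0467 to 0.019 for Vegfa, and for the Kdr interaction from -0.0004 to 0.1175. With the standard diet the ranges were -0.0125 to 0.1304 for Lyve1, -0.0289 to 0.0719 for Oit3, -0.0025 to 0.1219 for Vwf, -0.1949 to 0.039 for Cd34, -0.0933 to 0.0172 for Plvap, -0.038 to 0.032 for Ptprb and -0.2668 to 0.0547 for Gja5. Between the experiments they were -0.0775 to 0.0331 for Clec4g, -0.0448 to 0.035 for Pecam1 and -0.0839 to 0.0242 for Plvap in Fc mice, and -0.1512 to 0.0266 for Vwf in Fc(mML1)B3 mice. None of these was called in the reported fit. Every call among the other endothelial lists within a diet was lost at the study's fold thresholds. With the block F8 (adjusted p = 0.112) and Tek (0.0532) lost their HFD calls, as did Nr2f2, and Fcgr2b lost its standard diet call. Cd34, with medians of 167 to 245 reads, had the widest intervals of the members.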
